A study of Mus musculus with 6 samples.

Results

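The telomere-proximal ends of the mouse autosomes were followed through muscle differentiation in C2C12 cells by Hi-C, a method in which DNA segments that lie close together in the nucleus are ligated and sequenced as pairs. For each of the 19 autosomes, the distal end was taken as the last 20 bins of 500 kb with data in all 3 conditions, where a bin had data if its value on the diagonal of the matrix was above 0.5. This gave 380 distal bins of 4727 usable autosomal bins, and the remaining 4347 bins are called the other bins below. C2C12 is an established line of mouse skeletal muscle myoblasts, used here at passage 3. Proliferating myoblasts were taken on day 0, following 72 h of growth at low density. Myotubes, the multinucleated fibres formed by fusion, were harvested at day 3 of differentiation and still contained unfused myoblasts. AraC-treated myotubes were harvested at day 7. They had received 10 µg/ml AraC (cytosine arabinoside), a nucleoside analogue that stops DNA synthesis, from day 3 on, to deplete the remaining myoblasts, and values given as after AraC treatment are theirs. Time in culture and AraC therefore differ together between the myotube conditions and cannot be told apart. By the study's methods, both myotube cultures were also plated more densely than the myoblasts and switched to a differentiation medium with horse serum. Plating density, medium and time in culture thus differ together between myoblasts and myotubes and cannot be told apart from differentiation.

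Telomeres are the repeat-capped ends of linear chromosomes, held by a dedicated protein complex and folded back on themselves. Mouse autosomes have their centromere at one end, so a mouse chromosome has a single long arm. One telomere sits beside the centromere at the start of the reference coordinates and the other at the end, which is the distal end described here. After mitosis, chromosomes can keep an orientation with centromeres gathered at one side of the nucleus and distal telomeres at the other. Interphase chromatin is in addition divided into gene-rich, open A and gene-poor, closed B compartments, and regions of one compartment contact each other preferentially, also between chromosomes.

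The last usable bin was the outermost deposited bin on 13 of the 19 autosomes, and on 6 it lay further in and stopped short of the assembled end. In GRCm38.p6, the RefSeq assembly whose coordinates are those of mm10, the last 60 sequenced bases of the forward strand held at least 4 complete copies of the telomere unit TTAGGG at 18 of the 19 autosomal ends. The exception was chromosome 4, whose last sequenced bases (chr4:156358057-156358116) are given here as the end without a complete unit, so that no base is in capitals.
chromosome 4: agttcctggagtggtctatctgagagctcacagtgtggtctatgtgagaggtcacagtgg
Within 10 kb of these ends, the number of TTAGGG units ranged from 4 on chromosome 4 to 118 on chromosome 14. An array of 4 or more consecutive TTAGGG units on either strand occurred in 52 distal bins (13.7%) and in 181 other bins (4.16%), against 4.93% of all autosomal bins. Of the 19 last usable bins, 12 held such an array.

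The distal bins were richer in genes than the other bins. They held 1988 protein-coding transcription start sites (TSSs), a mean of 5.23 and a median of 3 per bin, against a mean of 4.23 and a median of 2 in the other bins. A bin without any protein-coding TSS was found 64 times among the distal bins (16.8%) and 1084 times among the other bins (24.9%). The median GC content was 44.6% in distal bins, with quartiles of 41.3% and 47.1%, and 41.5% in the other bins, with quartiles of 38.8% and 44.2%. The enzyme used for Hi-C, HindIII, had a median of 151 sites per 500 kb of known sequence in distal bins and 163 in the other bins. The 20 bins of an end spanned 10.0 Mb on most chromosomes. They spanned more on chromosomes 2, 4 and 12, where bins without data lay between them, and reached for example from 169500001 to 182000000 on chromosome 2. Chromosomes differed widely in gene content at their ends, from 24 protein-coding TSSs on chromosome 18 to 209 on chromosome 11. The distal end of chromosome 12 held all 81 Ighv genes annotated in usable autosomal bins, the variable segments of the immunoglobulin heavy chain. Olfactory and vomeronasal receptor genes, named Olfr and Vmn, numbered 95 in 10 distal bins and 1292 in 157 of the other bins.

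The values are correlation coefficients between the normalized interaction profiles of 2 bins, so they tell how alike the partners of both bins are and do not count contacts. Each condition was a single matrix pooled over 2 biological replicates, and no test between conditions and no spread between replicates could be given. The errors below are SDs over the 19 chromosomes of one matrix, and chromosomes share partner bins and are not replicates. Only pairs of bins on different autosomes (trans pairs) were used, of which 68400 joined distal bins to each other. The SD over all autosomal trans pairs was 0.0446 in myoblasts, 0.0890 in myotubes and 0.0732 after AraC treatment. Conditions were therefore compared on a scaled value, the difference between a mean and the mean of all autosomal trans pairs, divided by that SD.

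In myoblasts, the distal ends of different autosomes had more similar interaction profiles to each other than the other bins had, and in both myotube conditions this difference was within the spread between chromosomes. The mean trans correlation coefficient among distal bins was 0.0245 ± 0.0116 (SD over chromosomes, n = 19) in myoblasts, 0.00869 ± 0.00691 in myotubes and 0.00511 ± 0.0109 after AraC treatment. Among the other bins it was 0.00549 ± 0.00148, 0.00786 ± 0.00186 and 0.00340 ± 0.00136 in the same order. The difference was 0.0190 in myoblasts, larger than its SD over chromosomes of 0.0129. It was 0.000828 in myotubes, with an SD of 0.00707, and 0.00171 in AraC-treated myotubes, with an SD of 0.0109. On the scaled value, the distal ends stood at 0.431 in myoblasts, 0.0142 in myotubes and 0.0281 after AraC treatment. Compared with myoblasts, the scaled value differed by −0.417 in myotubes and by −0.403 after AraC treatment, with SDs over chromosomes of 0.230 and 0.264. Between the myotube conditions it differed by 0.0139, with an SD of 0.0822, while the unscaled mean differed by −0.00358. The mean percentile of a distal pair among all autosomal trans pairs was 61.9 in myoblasts, 49.3 in myotubes and 48.7 after AraC treatment.

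Counted by sign, 68.6% of the distal trans pairs were above 0 in myoblasts, where the share over all autosomal trans pairs was 57.1%. The share of distal pairs was 54.5% in myotubes against 58.4% over all pairs, and 51.4% in AraC-treated myotubes against 56.1%. The distal ends were thus above the background share in myoblasts and below it in both myotube conditions. The medians gave the same order, with 0.0256 for distal and 0.00600 for other pairs in myoblasts, 0.0111 and 0.0167 in myotubes, and 0.00322 and 0.0110 after AraC treatment. Mean and median therefore put the distal ends on opposite sides of the other bins in both myotube conditions. The spread over single distal pairs was wider than over other pairs in every condition, with SDs of 0.0659 and 0.0428 in myoblasts, 0.128 and 0.0855 in myotubes, and 0.108 and 0.0702 after AraC treatment.

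The value in myoblasts declined gradually along the chromosome, with no step at the 20th bin. Bins 1 to 5 from the end had a mean coefficient of 0.0260 with the distal bins of other autosomes, and bins 16 to 20, the last ones inside the rule, had 0.0228. Bins 21 to 25, the first ones outside it, had 0.0210, bins 26 to 40 had 0.0176, bins 41 to 80 had 0.0119 and bins farther inside had −0.000781. In myotubes, bins 1 to 5 had 0.00881, bins 6 to 10 had 0.00963, bins 16 to 20 had 0.00752, bins 21 to 25 had 0.00828, bins 26 to 40 had 0.00938 and bins beyond the 80th had 0.00396. After AraC treatment the values of the same classes were 0.00743, 0.00694, 0.00157, 0.00265, 0.00550 and 1.98e-05. Neither myotube condition showed a steady decline, since bins 26 to 40 were above bins 16 to 25 in both. The SD over chromosomes at the outermost bin after AraC treatment was 0.0144 around a mean of 0.00668.

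**Figure D1:**
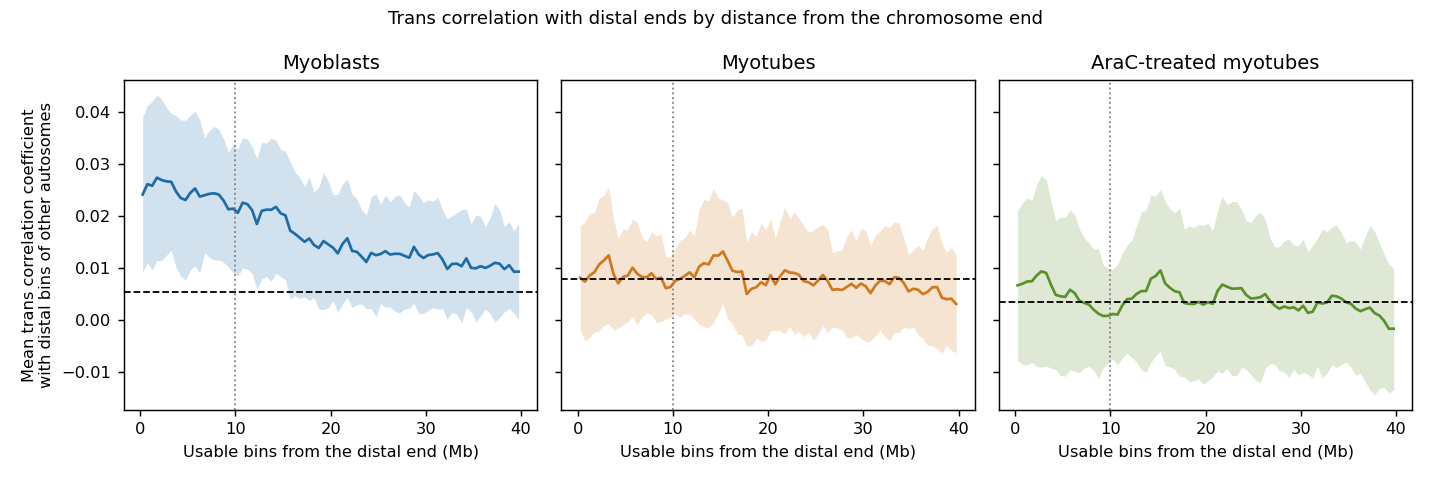
Mean trans correlation coefficient of each bin with the distal bins of other autosomes (y axis) against its distance from the distal end in usable bins, in Mb (x axis), for the 3 conditions. The line is the mean over the 19 autosomes, the band 1 SD over them, the dashed line the mean among the other bins and the dotted line the 20-bin limit; the myoblast line declines from 0.0241 at the outermost bin to 0.0206 just outside the limit and 0.00932 at the 80th bin.

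The chromosomes did not share the myoblast value equally, and the longer ones had the higher values. Chromosomes 5, 2 and 1 had mean coefficients of their distal bins of 0.0387, 0.0385 and 0.0371, while chromosomes 17, 18 and 19 had 0.0116, 0.00385 and −0.00380. The distal value was above that of the other bins of the same chromosome on 17 of 19 chromosomes, and the exceptions were chromosomes 18 and 19, the shortest autosomes. In myotubes it was above on 10 of 19 and in AraC-treated myotubes on 9 of 19. Across the 19 chromosomes, the distal value and chromosome length had a Pearson r of 0.855 and a Spearman rho of 0.839 in myoblasts. Without the 2 chromosomes farthest from the median length, r was 0.800. In myotubes r was 0.155 and in AraC-treated myotubes −0.0836. These are descriptions over 19 points that share partner bins. For the other bins, r with length in myoblasts had the opposite sign, −0.866.

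**Figure D2:**
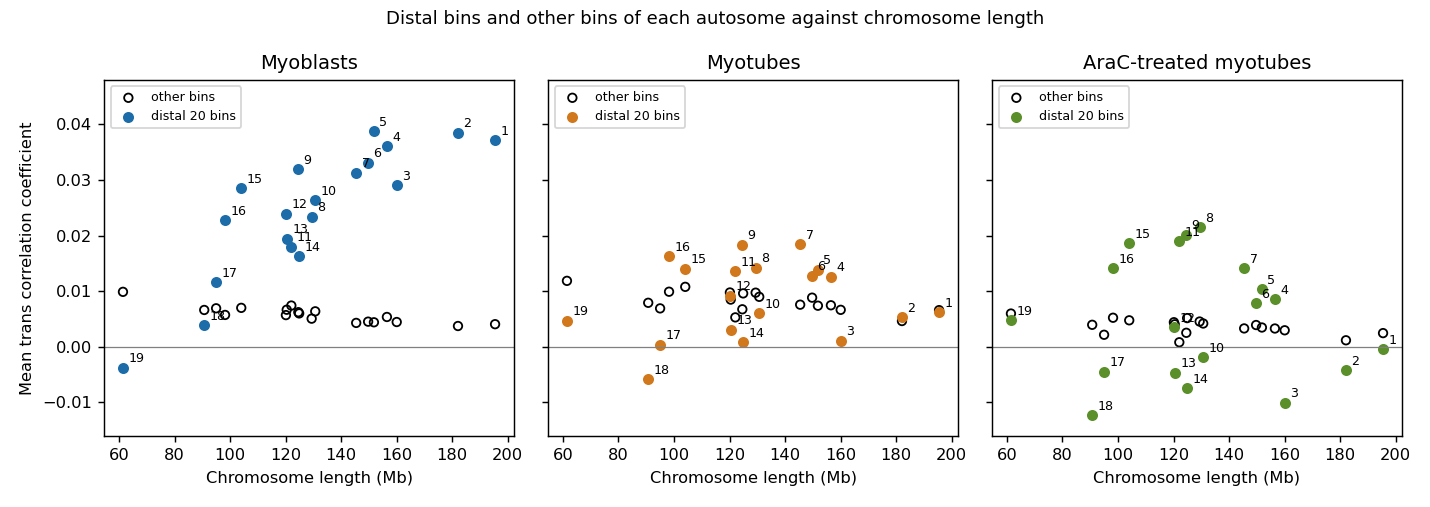
Mean trans correlation coefficient (y axis) of the distal 20 bins (filled, numbered by chromosome) and of the other bins (open) of each autosome against chromosome length in Mb (x axis), for the 3 conditions. In myoblasts the filled points run from −0.00380 on chromosome 19 to 0.0387 on chromosome 5, while in the myotube conditions they lie on both sides of the open points.

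Among the 9 longest autosomes, the distal ends had a mean trans coefficient of 0.0462 in myoblasts, against 0.00448 for their other bins. It was 0.0217 between the distal ends of long and of the 10 shorter autosomes, and 0.0127 among the shorter ones, whose other bins had 0.00948. In myotubes the 3 distal values were 0.0133, 0.00748 and 0.00741, and in AraC-treated myotubes 0.00489, 0.00523 and 0.00503. The order by length was therefore widest in myoblasts and absent in AraC-treated myotubes.

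The distal bins of long chromosomes also lie farthest from the centromeric start. All autosomal bins were therefore sorted into classes of 20 Mb by that distance, a choice made after the values were seen. Myoblast bins near the start resembled each other across chromosomes, and so did bins far from the start, which only long chromosomes have. Bins over 160 Mb from the start, which only chromosomes 1 and 2 had, so that their value among themselves is that of 1 chromosome pair, had a scaled value of 0.89 among themselves, 0.80 with bins at 140 to 160 Mb, 0.37 with bins at 100 to 120 Mb and −0.54 with bins in the first 20 Mb. The last of these combinations was also the lowest of all class combinations in myoblasts. Bins at 140 to 160 Mb had 0.66 among themselves and bins in the first 20 Mb 0.52. In the middle there was no such likeness, with −0.025 among bins at 60 to 80 Mb and 0.011 among bins at 80 to 100 Mb. The latter class includes distal bins of 4 shorter chromosomes and had 0.16 with bins over 160 Mb. In myotubes, bins over 160 Mb from the start had 0.20 among themselves and −0.17 with the first 20 Mb, and in AraC-treated myotubes these values were 0.083 and −0.16. Bins over 160 Mb were thus above 0 among themselves and below 0 with the first 20 Mb in all 3 matrices, most widely in myoblasts. Only in myoblasts did the value with the first 20 Mb fall at each step of distance. In myotubes it was −0.17 at 120 to 140 Mb and −0.11 at 140 to 160 Mb, and after AraC treatment −0.16 and −0.076.

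**Figure D3:**
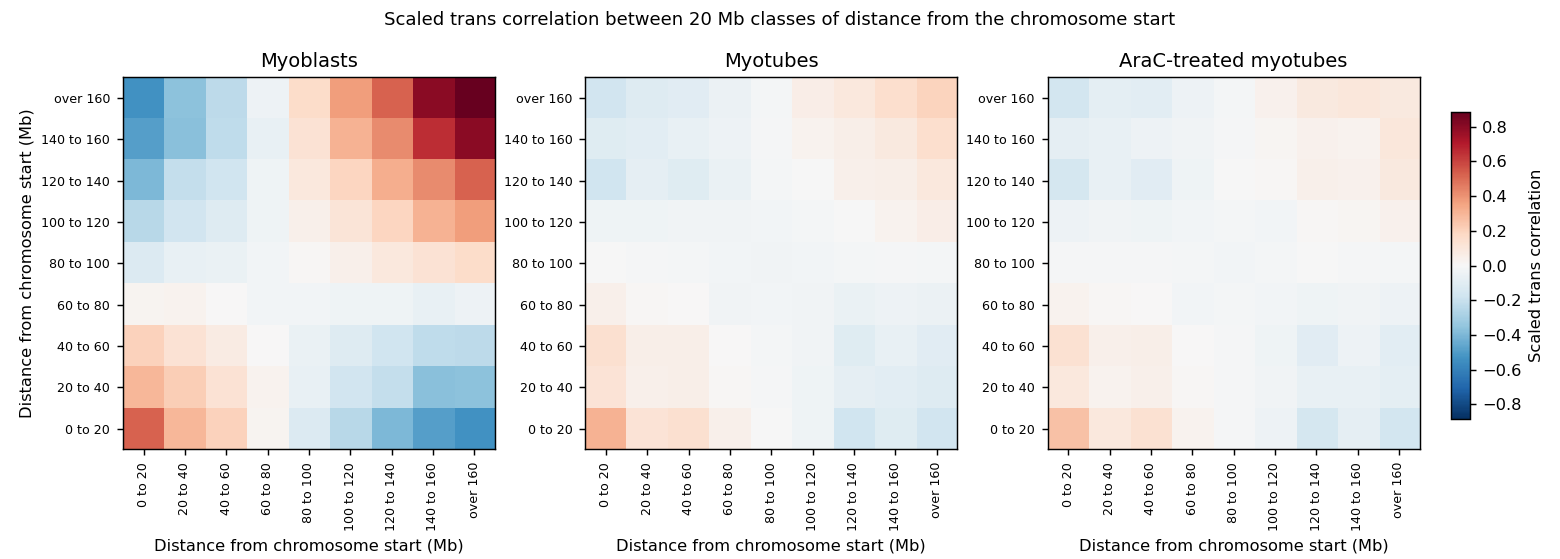
Mean scaled trans correlation (colour) between classes of autosomal bins by distance from the chromosome start in Mb (both axes), for the 3 conditions. In myoblasts, positive values lie in the corners where both classes are near the start (0.52) or both are far from it (0.89, from chromosomes 1 and 2 alone, and 0.66 at 140 to 160 Mb) and negative values where one is near and the other far (−0.54).

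Part of the myoblast difference was shared by other bins at the same distance from the start. Against other bins in the same 20 Mb classes, the distal bins were higher by 0.0114 in myoblasts, compared with 0.0190 against all other bins. This difference was −8.04e-05 in myotubes and 0.00155 after AraC treatment. Within the class at 80 to 100 Mb, 72 distal bins of 4 chromosomes had 0.00861 in myoblasts and 610 other bins had 0.00532. At 100 to 120 Mb the values were 0.0217 and 0.00951, at 120 to 140 Mb 0.0247 and 0.0171, and at 140 to 160 Mb 0.0465 and 0.0273. Over 160 Mb, where the distal bins were those of chromosomes 1 and 2 alone, they were 0.106 and 0.0381. The distal bins were the higher of the pair in each of these 5 classes, which are all that held distal bins of more than 1 chromosome, in myoblasts, in 2 of them in myotubes and in 2 of them after AraC treatment.

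The opposite, centromere-proximal ends gave a second reference. The first 20 bins of the autosomes had a mean coefficient among themselves of 0.0323 ± 0.00306 in myoblasts, 0.0340 ± 0.0132 in myotubes and 0.0206 ± 0.0128 after AraC treatment (SD over 19 chromosomes). On the scaled value these were 0.61, 0.30 and 0.24, so the centromeric ends stood above the distal ends in every condition. Between distal and centromeric ends of different chromosomes the mean was −0.0118 ± 0.0143 in myoblasts, 0.00143 ± 0.0252 in myotubes and −0.00208 ± 0.0208 after AraC treatment. The scaled value between opposite ends was −0.38 in myoblasts and −0.067 and −0.070 in the myotube conditions.

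The comparison was repeated between bins of equal gene content, and the distal ends were again higher in myoblasts. Other bins with the same numbers of protein-coding TSSs, combined as often as among the distal pairs, had a mean of 0.00603 in myoblasts, and the distal bins exceeded them by 0.0185, with an SD over chromosomes of 0.0111. In myotubes the difference at equal TSS count was 0.00255 and in AraC-treated myotubes 0.00283, with SDs of 0.00768 and 0.0112. Matched on the tenth of GC content, the myoblast difference was 0.0110 in place of 0.0185. It was then not above the SD over chromosomes of 0.0111 given for the match on TSS count. The differences in myotubes and AraC-treated myotubes were then below 0, at −0.00371 and −0.00294. Matched on the tenth of HindIII site number, the differences were 0.0155, 0.00123 and 0.00119.

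By class of TSS count, distal pairs were above other pairs at every gene content in myoblasts. Bins without a protein-coding TSS had 0.0323 in the distal set and 0.0154 elsewhere, bins with 1 to 2 TSSs 0.0313 and 0.00918, and bins with over 10 TSSs 0.0879 and 0.0436. In myotubes, the distal and other bins without a TSS had 0.0429 and 0.0447, whereas those with over 10 TSSs had 0.131 and 0.0579. In AraC-treated myotubes these values were 0.0265 and 0.0312 for bins without a TSS and 0.113 and 0.0436 for bins with over 10 TSSs. The 57 most gene-dense distal bins therefore exceeded the 488 other bins of that class in all 3 conditions, by 0.99, 0.82 and 0.95 SDs of the trans pairs. The 64 distal bins without a TSS exceeded theirs by 0.38 SDs in myoblasts and differed by −0.020 and −0.064 SDs in the myotube conditions. Distal bins with 6 to 10 TSSs exceeded other bins of that class by 0.47, 0.27 and 0.32 SDs in the 3 conditions. Those with 3 to 5 TSSs did so by 0.53, 0.039 and 0.027 SDs, and those with 1 to 2 TSSs differed by 0.50, 0.056 and −0.030 SDs.

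**Figure D4:**
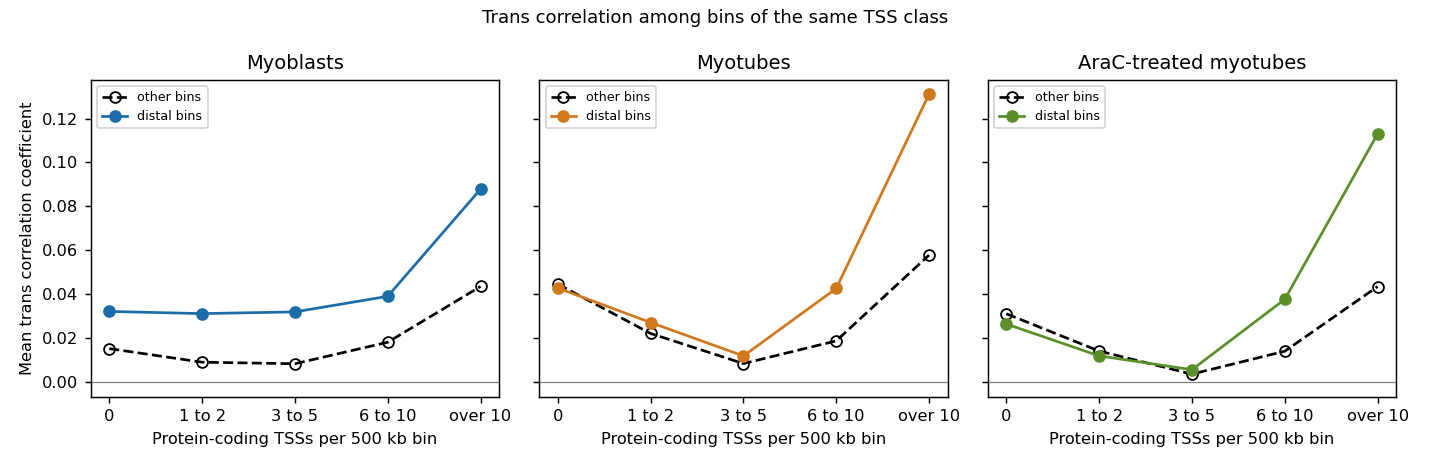
Mean trans correlation coefficient (y axis) among distal bins (filled) and among other bins (open) of the same class of protein-coding TSS number per 500 kb bin (x axis), for the 3 conditions. The filled points lie above the open ones in every class in myoblasts, and at 3 to 5, 6 to 10 and over 10 TSSs in all conditions. The values at over 10 TSSs are 0.0879, 0.131 and 0.113 against 0.0436, 0.0579 and 0.0436.

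Compartments were read from the first principal component (PC1) of each chromosome's own block of the matrix, with positive values, set to the side of higher TSS density, called A. In myoblasts 148 of 380 distal bins lay in A (38.9%, exact 95% interval of 34.0% to 44.1%), and 38.2% of all autosomal bins did. In myotubes 170 did (44.7%, 39.7% to 49.9%), against 36.5% of all bins, and in AraC-treated myotubes 177 (46.6%, 41.5% to 51.7%), against 35.5%. The intervals cover counting error only, since neighbouring bins are not independent. With 10 bins per end, the shares were 44.7%, 48.4% and 51.1%, above the share over all autosomal bins in each condition. With 20 bins per end, the distal share in A was at the background in myoblasts and above it in both myotube conditions. Leaving out any one chromosome kept it between 36.4% and 41.1%, 41.7% and 47.2%, and 43.6% and 49.2%, with chromosome 8 behind each lowest and chromosome 18 behind each highest value. On chromosome 8 all 20 distal bins lay in A in both myotube conditions, and on chromosome 18 none of 20 did in any condition.

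Between myoblasts and myotubes, the sign of PC1 differed in 32 distal bins (8.42%, exact 95% interval of 5.83% to 11.7%), where it differed in 7.28% of all autosomal bins. Between myoblasts and AraC-treated myotubes it differed in 49 (12.9%, 9.69% to 16.7%), against 10.2%, and between the myotube conditions in 21 (5.53%, 3.45% to 8.32%), against 5.10%. With bins of any PC1 counted, the numbers of distal bins with a different sign were thus near the background. They were split by direction as follows. From myoblasts to myotubes 27 distal bins went from B to A and 5 from A to B, while among the other bins 103 went from B to A and 209 from A to B. From myoblasts to AraC-treated myotubes the distal numbers were 39 and 10 and those of the other bins 137 and 297. Chromosome 9 held 8 of the 27 and 11 of the 39 bins, and 19 and 28 were left without it. Most of these bins had PC1 values near 0. When the 20% of bins with the smallest absolute PC1 on each chromosome in either condition were left out, the sign differed in 5 of 280 distal bins for myotubes against myoblasts. It differed in 12 of 276 for AraC-treated myotubes against myoblasts and in 0 of 298 for the 2 myotube conditions. Over all autosomal bins left, it differed in 12 of 3451, 40 of 3370 and 3 of 3559 in the same order. Among bins with PC1 away from 0, the distal share was therefore above the background in both comparisons with myoblasts, on few bins.

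Trans values were next compared by the compartments of both partners, A-A, B-B or A-B, and the contrast between like and unlike pairs was wider at distal ends than among the other bins in all 3 conditions. In myoblasts, pairs of distal A bins had a mean of 0.0933 and pairs of distal B bins 0.0486, while A-B pairs had −0.0153. The other bins had 0.0476, 0.0208 and −0.0199. In myotubes the distal values were 0.138 for A-A, 0.0738 for B-B and −0.0811 for A-B pairs, against 0.0845, 0.0571 and −0.0577 for the other bins. In AraC-treated myotubes they were 0.123, 0.0525 and −0.0705, against 0.0785, 0.0407 and −0.0517. Distal pairs of like compartment were therefore above other pairs of like compartment in all 3 conditions, by 1.03 SDs of the trans pairs for A-A in myoblasts, 0.61 in myotubes and 0.61 after AraC treatment. Distal A-B pairs differed from other A-B pairs by 0.10 SDs in myoblasts and by −0.26 SDs in each of the myotube conditions. The near-zero mean of the distal ends in myotubes was thus a sum of higher like pairs and lower unlike pairs, and in myoblasts all 3 kinds were higher.

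Distal ends were also compared for each pair of chromosomes. The distal mean exceeded that of the other bins of the same chromosome pair for 131 pairs in myoblasts (76.6%), 85 in myotubes (49.7%) and 81 after AraC treatment (47.4%). The pair values ranged from −0.0427 to 0.120 in myoblasts, from −0.123 to 0.244 in myotubes and from −0.116 to 0.232 after AraC treatment, with SDs over pairs of 0.0255, 0.0495 and 0.0515. These values are unscaled, and the SD over all autosomal trans pairs was likewise higher in both myotube conditions. The highest mean of the scaled value over the 3 conditions belonged to the ends of chromosomes 8 and 11, with coefficients of 0.120 in myoblasts, 0.244 in myotubes and 0.232 after AraC treatment. The ends of chromosomes 8 and 15 followed with 0.0813, 0.195 and 0.225, and those of 11 and 15 with 0.0898, 0.154 and 0.163. These 3 ends hold 122, 209 and 202 protein-coding TSSs, and 85%, 70% and 70% of their bins lay in A in myoblasts. The lowest means belonged to chromosomes 8 and 18, with −0.0392, −0.123 and −0.116, to 11 and 18, with −0.0427, −0.0936 and −0.0833, and to 3 and 8, with −0.00467, −0.106 and −0.112. The end of chromosome 9, named after its values were seen, had 0.0493 with that of chromosome 8 in myoblasts, 0.159 in myotubes and 0.214 after AraC treatment. Its bins in A numbered 9, 17 and 20 of 20 in the same order. The ends of the longest chromosomes, 1 and 2, likewise named after their values were seen, went the other way, with 0.106, 0.0790 and 0.0406.

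**Figure D5:**
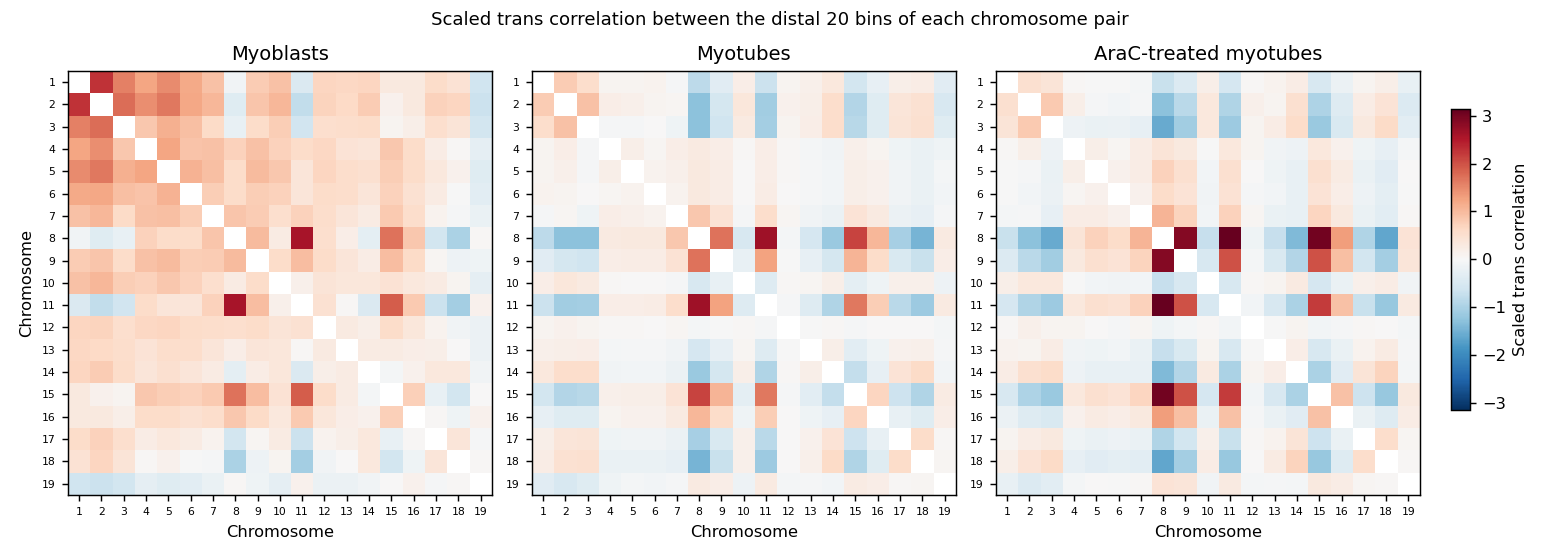
Mean scaled trans correlation (colour) between the distal 20 bins of each pair of autosomes (both axes, chromosome number), for the 3 conditions. In myoblasts the pairs among chromosomes 1 to 7 are positive. In the myotube conditions the highest values are at the pairs among chromosomes 8, 9, 11 and 15 (up to 3.13 for chromosomes 8 and 11 in AraC-treated myotubes). Other pairs are positive there too, for example 8 and 16 (1.04 in myotubes), 2 and 3 (0.92) and 7 and 8 (0.83).

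The distal value was also set beside the gene and GC content of the ends. Pearson r over the 19 chromosomes with the number of protein-coding TSSs in the 20 bins was 0.367 in myoblasts, 0.695 in myotubes and 0.689 after AraC treatment. Without the 2 chromosomes farthest from the median number it was 0.494, 0.696 and 0.589. With the median GC content of the 20 bins it was 0.404, 0.794 and 0.801, and without the farthest 2 chromosomes 0.411, 0.747 and 0.764. As given above, r with chromosome length went from 0.855 to 0.155 and −0.0836, and without the farthest 2 chromosomes it was 0.800, 0.178 and −0.0418. These 9 correlations are descriptions over chromosomes that share partner bins, and differences between them were not tested.

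Single distal bins spread widely. In myoblasts the scaled mean of a distal bin with the distal bins of other autosomes ranged from −0.42 to 1.14, with a median of 0.47, and 340 of 380 were above 0. In myotubes the range was −0.20 to 0.33, with a median of −0.0013 and 188 above 0, and in AraC-treated myotubes −0.26 to 0.55, with a median of −0.012 and 183 above 0. The share of other bins above 0 is not given here, so these counts stand without a background. A distal bin resembled distal bins of other autosomes more than it resembled other bins in 341 of 380 cases in myoblasts (89.7%) and in 179 cases (47.1%) in each of the myotube conditions. Among the 4347 other bins, these shares were 41.1%, 30.8% and 30.0%. Compared with myoblasts, the scaled value was lower in myotubes for 349 distal bins (91.8%) and in AraC-treated myotubes for 331 (87.1%). With the same distal partners, it was lower for 1873 (43.1%) and 1931 (44.4%) of the 4347 other bins. The whole trans profile of the distal bins was about as similar between conditions as that of the other bins. Between myoblasts and myotubes, its median r was 0.813 for distal and 0.824 for other bins. It was 0.760 and 0.783 when AraC-treated myotubes were set against myoblasts, and 0.952 and 0.938 between the myotube conditions.

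The highest scaled values over the conditions belonged to the end of chromosome 2, among them the outermost usable bin, chr2:181500001-182000000, and the third from the end, chr2:180500001-181000000. The outermost holds 15 protein-coding TSSs, the first of them those of Dnajc5, a synaptic vesicle co-chaperone, Uckl1, Prpf6, a splicing factor, Zfp512b and Samd10. Its mean coefficient was 0.0560 in myoblasts, 0.0280 in myotubes and 0.0283 after AraC treatment. The third, with Mrgbp, Ogfr, Col9a3, a collagen chain of cartilage, Tcfl5 and Dido1, had 0.0536, 0.0239 and 0.0248. PC1 of the outermost bin was 0.27 in myoblasts, 1.57 in myotubes and 1.72 after AraC treatment, so these bins lay in A throughout and further from 0 in the myotube conditions.

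The lowest scaled values belonged to ends of short chromosomes. The bin chr19:53000001-53500000, with Xpnpep1, Add3, Mxi1, an antagonist of Myc, Gm10197 and Smndc1, had mean coefficients of −0.00812 in myoblasts, −0.00706 in myotubes and −0.0137 after AraC treatment. The bin chr19:51500001-52000000, which holds no protein-coding TSS and is the 20th from the end, had −0.0136, −0.000530 and −0.00709. The bin chr18:88500001-89000000, with Socs6, a suppressor of cytokine signalling, and Rttn, a centriole protein, had −0.00167, −0.0105 and −0.0163.

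The largest differences downwards in the scaled value, taken from myoblasts to AraC-treated myotubes, lay side by side on chromosome 2, at bins 11 to 13 from the end. The bin chr2:173000001-173500000, with Rae1, Rbm38, Ctcfl, the germline relative of CTCF, Pck1, a key enzyme of gluconeogenesis, and Zbp1, a sensor of Z-form nucleic acid, had 0.0517 in myoblasts, 0.000400 in myotubes and −0.0105 after AraC treatment. Its neighbours chr2:173500001-174000000, with 1700021F07Rik, Ankrd60, Rab22a, 1700010B08Rik and Vapb, and chr2:174000001-174500000, with Stx16, Npepl1, Gnas, Gm20721 and Nelfcd, had scaled differences of −1.19 and −1.21, close to the −1.23 of the first. All 3 lay in B in every condition. The outermost bins of the same chromosome, described above, had coefficients above 0 in all 3 matrices.

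The largest differences upwards were found on chromosomes 19 and 8. The bin chr19:55500001-56000000, whose single protein-coding TSS is that of Tcf7l2, a transcription factor of Wnt signalling, had −0.00351 in myoblasts, 0.0180 in myotubes and 0.0190 after AraC treatment. The bin chr8:123000001-123500000, with Ankrd11, Spg7, a mitochondrial protease subunit, Rpl13, a ribosomal protein, Cpne7 and Sult5a1, had −0.00360, 0.00708 and 0.0169. The bin chr19:53500001-54000000, with Dusp5, Nutf2-ps1, Smc3, a cohesin subunit, Rbm20, a regulator of titin splicing, and Pdcd4, had −0.0109, −0.00262 and 0.00122. All 3 lay in A in every condition.

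By PC1, the largest differences upwards from myoblasts to myotubes were all on chromosome 8. They were the bins chr8:128000001-128500000 with Nrp1, a receptor of semaphorins and VEGF (0.51 in myoblasts and 2.76 in myotubes), chr8:119500001-120000000 with Slc38a8, Mbtps1, Hsdl1, Dnaaf1 and Taf1c (1.55 and 3.79), and chr8:127000001-127500000 with Pard3, a cell polarity protein (0.57 and 2.78). PC1 is not scaled between conditions, and its SD over distal bins was 0.994 in myoblasts and 1.90 in myotubes. The largest differences downwards included those at chr11:114000001-114500000 with Sdk2, a cell adhesion protein (−1.75 and −3.13), and chr2:172500001-173000000 with Tfap2c, Bmp7, a bone morphogenetic protein, and Spo11, the enzyme of meiotic strand breaks (−1.32 and −2.39). None of these 5 bins had a different sign in myotubes.

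Of 106 listed muscle genes in usable autosomal bins, 10 had their TSS in a distal bin (9.43%), where 9.76% of all protein-coding TSSs lay. The fast skeletal troponin genes Tnnt3 and Tnni2 shared the bin chr7:142000001-142500000, which holds 24 protein-coding TSSs. Its mean coefficient was 0.0345 in myoblasts, 0.0320 in myotubes and 0.0349 after AraC treatment, with PC1 of 0.99, 2.49 and 2.31. The bin of Acta1, skeletal muscle alpha-actin, on chromosome 8 had 0.0128, 0.00969 and 0.0195, and that of Actg1, a cytoskeletal actin, on chromosome 11 had 0.00325, 0.0113 and 0.0204. Chromosome 10 carried Myl6 and Myl6b, which encode myosin light chains, in a bin with 0.0252, 0.0179 and 0.0238. Erbb3, a neuregulin receptor, and Itga7, the muscle laminin receptor subunit, shared the next bin, with 0.0351, 0.00554 and 0.00445. Agrn, whose product agrin organizes the neuromuscular junction, lay in the last bin of chromosome 4, with 0.0411, 0.0106 and 0.00662. All but the bin of Agrn lay in A in every condition. On the scaled value, the bin of Tnnt3 and Tnni2 had 0.66 in myoblasts, 0.28 in myotubes and 0.43 after AraC treatment. The bin of Erbb3 and Itga7 had 0.67, −0.021 and 0.019, that of Agrn 0.80, 0.035 and 0.049, and that of Myl6 and Myl6b 0.45, 0.12 and 0.28. These bins were lower in both myotube conditions, as were most distal bins (91.8% in myotubes and 87.1% after AraC treatment). The bin of Acta1 had 0.17, 0.025 and 0.22, lower in myotubes and higher after AraC treatment. That of Actg1 had −0.045, 0.044 and 0.24 and was higher in both.

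Of 26 listed imprinted genes, 15 had their TSS in a distal bin (57.7%). The list was chosen with its loci known, and 12 of the 15 belong to the cluster at the end of chromosome 7, in 3 adjoining bins, so the share says nothing of imprinted genes at large. The bin with H19, a growth-restraining non-coding RNA, and Igf2, an insulin-like growth factor, with Ins2 and Ascl2, chr7:142500001-143000000, had mean coefficients of 0.0345 in myoblasts, 0.0358 in myotubes and 0.0376 after AraC treatment. The next bin, with Kcnq1, Cdkn1c, an inhibitor of cyclin-dependent kinases that is also on the muscle list, Cd81, Tspan32, Tssc4 and Slc22a18, had 0.0366, 0.0355 and 0.0386, and the one with Phlda2 and Nap1l4 had 0.0350, 0.0321 and 0.0356. Dlk1 and Meg3, neighbours on chromosome 12, had 0.0251 and 0.0266 in myoblasts, 0.0127 and 0.0156 in myotubes, and 0.00724 and 0.0114 after AraC treatment. Gnas, the stimulatory G protein alpha subunit, lay in the chromosome 2 bin described above and had 0.0497, 0.00222 and −0.0128. On the scaled value, the 3 bins of the chromosome 7 cluster had 0.65, 0.70 and 0.67 in myoblasts, 0.32, 0.32 and 0.28 in myotubes, and 0.47, 0.49 and 0.45 after AraC treatment. Gnas had 0.996, −0.058 and −0.22, Dlk1 0.44, 0.059 and 0.057, and Meg3 0.48, 0.092 and 0.11. All of these loci were thus lower in both myotube conditions than in myoblasts on the scaled value. So were most distal bins, 91.8% in myotubes and 87.1% after AraC treatment. The chromosome 7 bins were the highest of these loci in the myotube conditions.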

How the data were processed

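Each of the 3 conditions had 2 biological replicates, from which Hi-C libraries were made with HindIII. By the study's methods, reads were mapped with bowtie and filtered in HiCUP, and the authors pooled the replicates and made in HOMER 1 matrix per condition. The deposited score is a correlation coefficient, which compares the normalized interaction profiles of 2 bins of 500 kb (mm10), and was used as given. Columns of unmapped samples numbered 0. How many read pairs stand behind a coefficient cannot be read from it, so the depth of each value is unknown here. By the study's counts, the pooled libraries held most valid read pairs in myotubes and fewest after AraC treatment. Trans pairs made up the smallest part of the myoblast libraries and the largest of the AraC-treated ones. The study's replicate matrices were least alike in myoblasts. These differences go together with condition, and their effect on the values was not tested. The positions of the bins matched GRCm38.p6, and TSSs were those of GENCODE vM21.

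PC1 came from the within-chromosome block with columns centred. Its sign followed TSS density, with r between PC1 and TSS count down to 0.0512 on chromosome 13. Means at equal TSS count used other bins in the same combinations of TSS number (capped at 20) as distal pairs. Steps were tested on simulated matrices. Python 3.11.15, NumPy 2.4.6, pandas 2.3.3, SciPy 1.17.1 and Matplotlib 3.10.9 were used. Bins were named as the 3 highest and 3 lowest by scaled value, by its difference from myoblasts to AraC-treated myotubes and by that of PC1 to myotubes. Chromosome pairs were named likewise, and listed muscle and imprinted genes with a TSS in a distal bin. The members and lists were chosen with earlier results of these data known. Chromosome X was left out of the comparisons. Alternatives were 10 or 40 bins per end, medians, equal weights of chromosome pairs, other scalings, matching on GC, HindIII sites or PC1, a PC1 from other chromosomes and each chromosome left out. Of the bins chosen by these rules 2, and the sequence of other chromosome ends, are not reported here.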

Additional observations from a re-analysis of the deposited data

How the results depend on the processing

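Of 93 values recomputed for 15 results, 79 moved by less than the SD over chromosomes or stayed within the exact interval, 14 moved further or were in another unit, and 0 of the values larger than their SD over chromosomes had the opposite sign. Restricted to pairs of A bins, the difference between distal and other bins was 0.0458 in myoblasts, 0.0539 in myotubes and 0.0448 after AraC treatment, and for pairs of B bins it was 0.0167 in myotubes. The cause was not tested. Without division by the SD, the distal mean differed by −0.0158 from myoblasts to myotubes, by −0.0194 to AraC-treated myotubes and by −0.00358 between the myotube conditions, and in mean percentile by −12.7, −13.2 and −0.520, so the last difference had the opposite sign on the scaled value. With 10 bins per end, 44.7% of distal bins lay in A in myoblasts. With a minimum absolute PC1, which leaves fewer bins, the sign differed in 1.79%, 4.35% and 0% of distal bins in the 3 comparisons. Over all autosomal bins left, it differed in 12 of 3451, 40 of 3370 and 3 of 3559. With 1 chromosome left out, the difference between distal and other bins lay between 0.0171 and 0.0226 in myoblasts, −0.000433 and 0.00254 in myotubes, and −0.000217 and 0.00379 after AraC treatment. No paired analysis was possible because each condition is 1 matrix pooled over its replicates. Matching on distance from the chromosome start was chosen after seeing the data. Depth behind single values is unknown, which limits all of these comparisons.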

Other observations

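The end of chromosome X, which is in no comparison above, was set beside the autosomal ends. Its last 20 usable bins had a mean trans correlation coefficient with the distal bins of the autosomes of 0.0250 in myoblasts, 0.00645 in myotubes and −0.000892 after AraC treatment. The other 272 usable bins of chromosome X had 0.00864, 0.00255 and −0.00152 with the same partners. On the scaled value, the end of chromosome X stood at 0.44, −0.011 and −0.054. In myoblasts this is near the 0.43 of the autosomal distal ends among themselves.

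The trans profile of a bin, its coefficients with all bins of other autosomes, was negatively correlated between myoblasts and myotubes in 21 of 380 distal and 188 of 4347 other bins. Between myoblasts and AraC-treated myotubes this was so in 37 of 380 distal and 294 of 4347 other bins, and between the myotube conditions in 9 and 54. The distal share was the higher in each comparison, on few distal bins, and the difference was not tested. The medians given above were close between distal and other bins.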
